A study of Mus musculus with 6 samples.

Results

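The glutamate receptors and the postsynaptic scaffold of the newborn mouse cerebellum were followed through 35 genes, of the 34797 gene names on the array. The genes were taken by symbol: a probe belongs to a gene where the array's own gene name equals it and the spot is not a control. All 35 genes had at least 1 probe, with 61 probes in all. A gene with several probes, which was the case for 19 genes, is given by its brightest probe (the highest mean over the arrays). The list holds 17 subunits of ionotropic receptors (4 of AMPA, 5 of kainate, 1 of delta and 7 of NMDA receptors), 7 metabotropic receptors, the AMPA receptor anchor Grip1, 7 scaffold proteins of the postsynaptic density and 3 transporters.

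Glutamate is the main excitatory transmitter of the brain. AMPA receptors carry most of the fast current, NMDA receptors admit calcium once the membrane is depolarized, kainate receptors act on both sides of the synapse, and metabotropic receptors signal through G proteins. Under the postsynaptic membrane, Dlg4 (PSD-95) holds NMDA receptors, Homer proteins bind group I metabotropic receptors, and Shank proteins link both to the actin skeleton. In the cerebellum these molecules serve the parallel and climbing fibre inputs to Purkinje cells and the mossy fibre inputs to granule cells, most of which form after birth.

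The animals were pups at postnatal day 1, of strain C57BL/6 by the sample label, whose C57BL/6J dams had received folic acid (FA) at 2 mg or 20 mg per kg of diet before and during gestation. For each sex, 1 array held the 2 mg FA group and 2 arrays held the 20 mg FA group (replicates 1 and 2, the RNA extraction at 20 mg having been repeated from another batch). Each of the 6 arrays held RNA pooled from 3 pups of different dams, so the replicate is the pool. The sample titles and the paper give the tissue as cerebellum, while 1 field of the labels gives whole brain.

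The array labelled female 20 mg replicate 2 stood apart before any comparison, with 23.3% of its probes well above background against 51.1% to 71.9% on the other arrays. Slide 1 carried the 2 mg arrays of both sexes with female 20 mg replicate 1, and slide 3 carried male 20 mg replicate 2. The remaining arrays at 20 mg lay on slide 2, which was scanned on another day. The cerebellum markers (9 genes) were all well above background on both 2 mg arrays, and their summed linear signal ranged from 32087 to 58321 over the 6 arrays. So were all 8 forebrain markers, with a summed signal from 1721 (male 2 mg) to 15761 (female 20 mg replicate 1). The summed signal ranged from 160226 to 265465 for 6 neuronal markers, from 68143 to 134607 for 6 astrocyte markers, from 7903 to 14894 for 5 oligodendrocyte markers and from 3883 to 16984 for 4 microglia markers. It ranged from 29157 to 181199 for 3 red blood cell markers, from 7761 to 16476 for 3 vessel and meningeal markers and from 2572 to 73949 for 3 choroid plexus markers. The part of these differences in the values below was not tested. In pooled tissue, fewer cells of a type and less RNA per cell cannot be told apart.

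An array reads a gene through short probes, so what a value stands for depends on the stretch probed. The probes of 4 genes are shown because the results turn on them. Their positions are in build mm9 as the array design gives them, and their letters are those of the deposited scanner files. Where a probe lies in a gene was read from its reading frame and general knowledge of the gene, not from an annotation of this build. The Homer1 probes separate its forms: the long forms end in a coiled coil that ties receptors together, and the short, activity-induced form lacks it. The first pair below lies in coding sequence shared by the forms (chr13:94116595-94116654 and chr13:94125924-94125983, plus strand), the next covers the end of the short form (chr13:94126009-94126068, plus strand), with its stop codon in capitals, and the last lies in the long forms (chr13:94157507-94157566, plus strand).
Homer1 shared, first: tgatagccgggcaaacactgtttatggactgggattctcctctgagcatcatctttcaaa
Homer1 shared, next: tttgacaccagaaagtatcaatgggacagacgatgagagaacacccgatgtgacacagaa
Homer1 short form: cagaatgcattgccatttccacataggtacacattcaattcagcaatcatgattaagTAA
Homer1 long forms: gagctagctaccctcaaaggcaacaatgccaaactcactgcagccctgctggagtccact
The next probes lie in coding sequence of Grin1 (its carboxyl-terminal tail, which varies by splicing; chr2:25147922-25147981, minus strand), Gria3 (its ligand-binding domain; chrX:39007367-39007426, plus strand) and Grm4 (its transmembrane part; chr17:27571527-27571586, minus strand).
Grin1 tail: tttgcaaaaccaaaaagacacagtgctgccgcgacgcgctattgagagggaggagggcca
Gria3: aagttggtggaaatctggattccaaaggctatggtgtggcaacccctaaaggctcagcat
Grm4: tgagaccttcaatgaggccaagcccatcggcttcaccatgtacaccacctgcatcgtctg

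On the 2 mg arrays the synaptic genes were detected almost without exception. On each 2 mg array 34 of the 35 genes were well above background, including subunits of every receptor class, all 7 scaffold genes and all 3 transporters. The background below is the 15572 genes with a RefSeq symbol and a brightest probe well above background on at least 2 arrays. Of these, 96.9% were detected on the female and 98.3% on the male 2 mg array. That share is high by the choice of these genes, a choice not applied to the 35. Over all probes of the array, not only the brightest of a gene, 63.6% and 65.8% were well above background. The exception was Grm6, the receptor of retinal ON bipolar cells, which was well above background on no array. The male and female 2 mg arrays, 1 pool each and so without a test, differed by at most 0.88 on the log2 scale at any of the 35 genes. The median absolute difference was 0.21, beside 0.20 over the 15572 genes. None of the 35 differed by 2.5-fold, against 0.783% of these 15572 genes lower and 0.552% higher in the male array. The plot of levels by array shows this closeness for most genes, and also where female 20 mg replicate 2 left the other arrays. On that replicate 60.0% of the 35 genes were well above background, a larger share than the 47.7% of the 15572 genes.

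**Figure D1:**
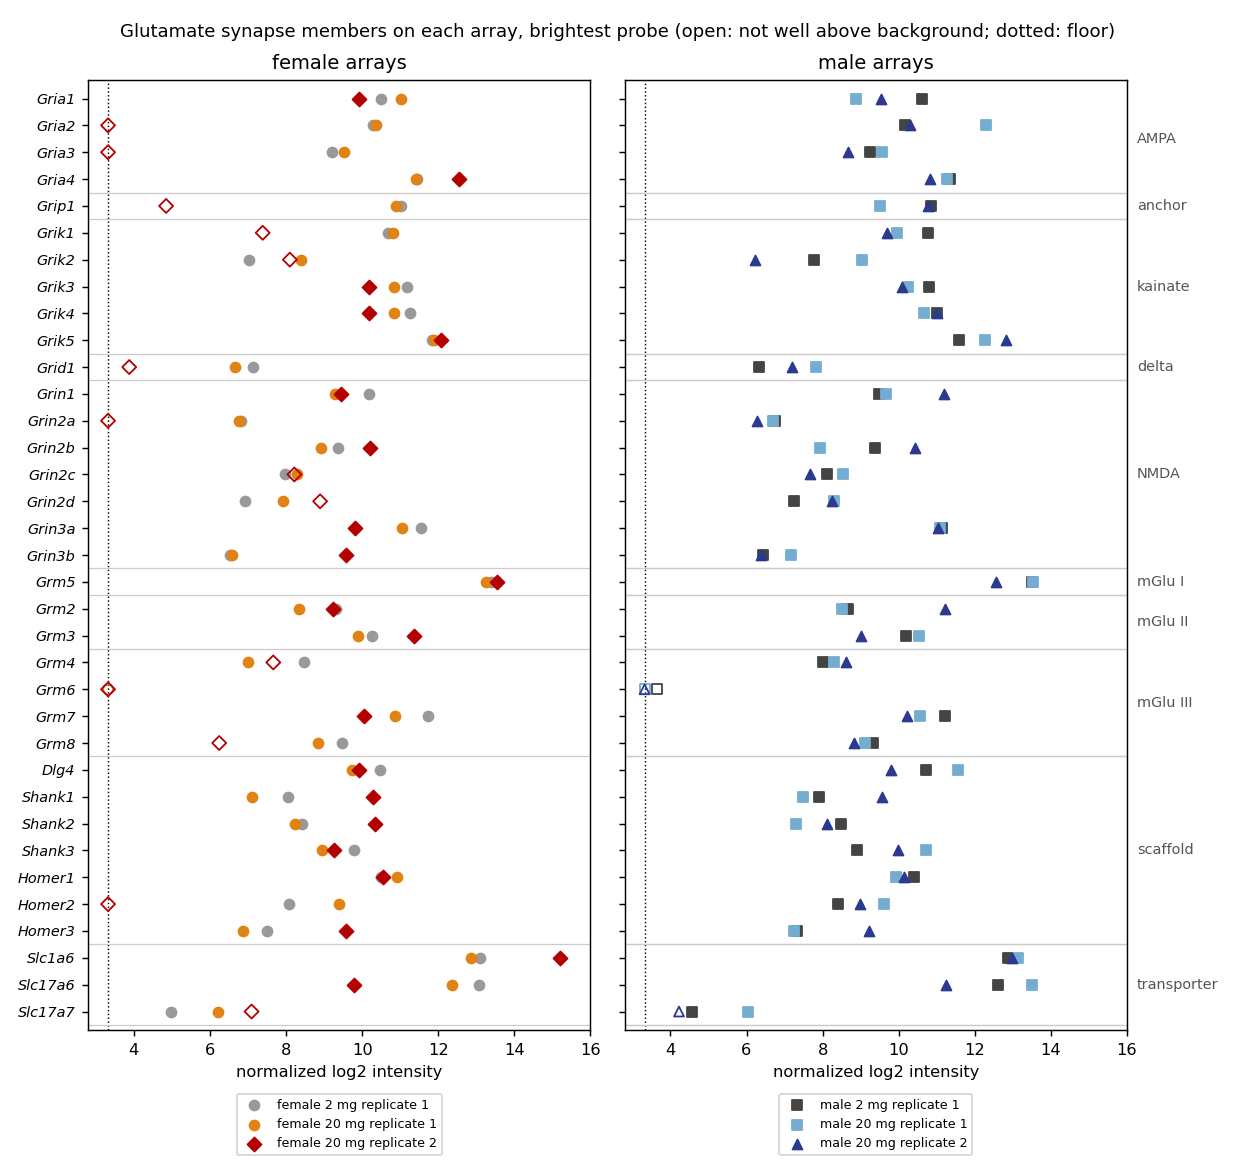
Normalized log2 intensity of the brightest probe of each of the 35 genes on the 3 female arrays (left) and the 3 male arrays (right), with open symbols where the probe was not well above background and a dotted line at the floor of 3.32. On the array labelled female 20 mg replicate 2 (red diamonds), 14 of the 35 genes are open and 5 lie at the floor. The filled share there is 60.0%, beside 47.7% of the background genes named in the text. On both 2 mg arrays 34 of the 35 genes are filled.

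The dose comparison asks whether these genes differed between pups of the 20 mg and the 2 mg FA group. In males none of the 35 genes was lower and none was higher under the fold rule, which asks for a mean difference of at least 2.5-fold in a probe whose values vary over the arrays more than usual. Of the 15572 genes, 1.95% were lower and 0.854% higher by this rule. In females 9 of the 35 genes were lower (25.7%): Gria2, Gria3, Grip1, Grik1, Grid1, Grin2a, Grm8, Homer2 and Slc17a6. The background in this direction was 14% of the 15572 genes. Only Grin3b was higher in females, against a background of 3.35%. The rule contains no test, and the 9 genes owed it to the array labelled female 20 mg replicate 2. Of these 9 genes, 8 were not well above background on it, 4 lay at the floor there, and 4 were higher than at 2 mg on replicate 1. Only for Grm8 and Slc17a6 was the mean difference larger than the SD between the pools. Without that array the rule called 0 of the 35 genes lower in females, and the share of the 15572 genes was not computed. On replicate 1 taken alone, without the variation filter, 1.93% of the 15572 genes were lower by 2.5-fold, and 1 of the 35 (Grm4).

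In the limma fit, which sets the differences against the spread between pools, 0 of the 35 genes reached the threshold of 0.05 after Benjamini-Hochberg adjustment, whether for the dose within females, within males or over both sexes, or for the difference of the dose effect between the sexes (the interaction). The background was 0% of the 37211 probes fitted in each of these contrasts. At an unadjusted p under 0.05, limma gave 0 of the 58 probes of these genes in each contrast. Over all probes it gave 0.199% in males, 0.433% in females, 0.39% over both sexes and 0.137% for the interaction. The smallest unadjusted p from limma among the 58 probes was 0.245 in males (Grin2a), 0.0907 in females (Grip1), 0.132 over both sexes (Grin1) and 0.112 for the interaction (Gria2), with adjusted p values of 1. Each lone 2 mg array was assumed to vary like the pools at 20 mg. The sexes shared the same estimate of the spread at each probe, so the male tests also carried the spread of the female arrays. The 20 mg arrays of a sex also differed in slide and scan day, so this spread is not that of the pools alone. The words lower and higher below are therefore descriptions of these pools.

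Taken singly, the 20 mg arrays gave different genes past 2.5-fold. On female 20 mg replicate 1, which shares its slide with the 2 mg arrays, Grm4 was lower (background 1.93%) and Grik2 and Homer2 were higher (1.55%). On the array labelled female 20 mg replicate 2, 11 genes were lower (background 30.9%) and 7 were higher (17.2%). Male 20 mg replicate 1 had Gria1, Grip1 and Grin2b lower (7.78%) and Gria2, Grid1, Shank3 and Slc17a7 higher (6.09%). Male 20 mg replicate 2 had Grik2 and Slc17a6 lower (8.17%) and Grin1, Grm2, Shank1 and Homer3 higher (5.88%). No gene was past 2.5-fold in the same direction on both 20 mg arrays of a sex. The backgrounds for this were 1.13% lower and 0.507% higher in females, and 1% and 0.212% in males.

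**Figure D2:**
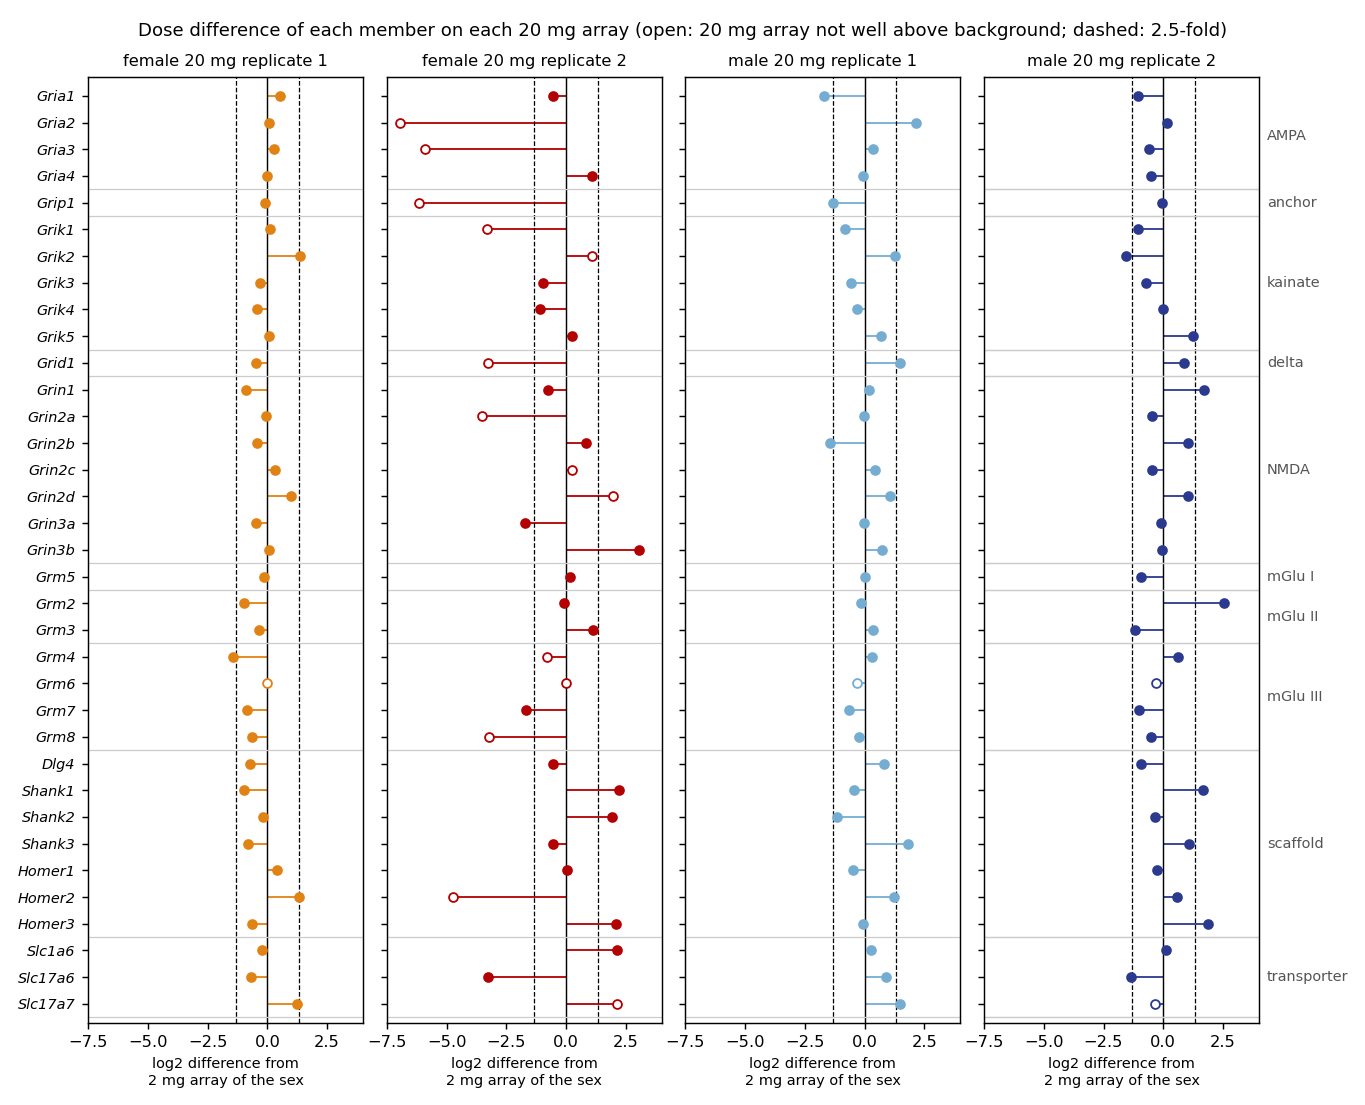
Log2 difference of each of the 35 genes from the 2 mg array of its sex, on each 20 mg array, with dashed lines at 2.5-fold and open points where the 20 mg array was not well above background. Differences reach from -6.96 to 3.05 on female 20 mg replicate 2 and from -1.45 to 1.37 on replicate 1, and the genes past the dashed lines differ between the panels.

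Among the AMPA receptor subunits, Gria2, which makes the channel impermeable to calcium, had log2 values of 10.28 at 2 mg and 10.37 and 3.32 at 20 mg in females, and of 10.16 at 2 mg and 12.31 and 10.30 at 20 mg in males. The 3 log2 values of a sex are given in this order throughout, the 2 mg array first and then replicates 1 and 2 at 20 mg. Its female mean was thus lower by 10.9-fold and its male mean higher by 2.21-fold, each through 1 array. The SD between the pools was 4.98 in females and 1.42 in males, against differences of -3.44 and 1.14. The second Gria2 probe (8.30, 8.15 and 8.75 in females) was higher on the array where the brightest probe was at the floor, though not well above background there. Gria3 had 9.22, 9.51 and 3.32 in females and 9.24, 9.57 and 8.66 in males. Its coding probe printed above had 7.07, 7.22 and 3.32 in females, so both Gria3 probes lay at the floor on female 20 mg replicate 2 and close to the 2 mg value on replicate 1.

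Gria1, a main subunit of synaptic potentiation, was lower on both male arrays at 20 mg (8.89 and 9.53, against 10.61 at 2 mg). Its male mean was lower by 2.63-fold, with a difference of -1.40 and an SD of 0.45 (n = 2), but the variation filter left the probe out. In females it lay on either side of the 2 mg value (10.49 at 2 mg, 11.03 and 9.92 at 20 mg). Gria4, the subunit of Bergmann glia and of early neurons, differed by at most 1.11 on any array at its brightest probe, and by -1.38 on female replicate 2 at its second, which was not well above background there. Grip1, a PDZ protein that anchors Gria2 and Gria3, had 11.02, 10.90 and 4.85 in females and 10.85, 9.52 and 10.78 in males. Both sexes thus had 1 array at 20 mg near the 2 mg value and 1 below it. A further Grip1 probe was higher by 0.82 on female replicate 1 and lay at the floor on replicate 2, and the last differed by -1.51 and -0.16.

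Of the kainate receptor subunits, Grik3, which forms receptors of low glutamate affinity, was lower on all 4 arrays at 20 mg. It had 11.17, 10.84 and 10.19 in females and 10.81, 10.24 and 10.09 in males, so the 2 mg array was the highest in each sex. The mean difference was -0.65 in each sex, with an SD between pools of 0.46 in females and 0.11 in males. Grik4, a high-affinity subunit, was also lower on all 4, with differences of -0.43 and -1.07 in females and of -0.33 and -0.01 in males. Grik5, the high-affinity partner subunit, was higher on all 4 (11.84, 11.89 and 12.08 in females, and 11.59, 12.26 and 12.82 in males).

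Grik1 and Grik2 form functional channels of low affinity. Grik1 had 10.68, 10.81 and 7.39 in females, where the last array was not well above background, and 10.77, 9.96 and 9.70 in males. The second Grik1 probe differed by at most 0.46 on any array. Grik2 had 7.02, 8.39 and 8.10 in females and 7.78, 9.03 and 6.21 in males. It was thus higher at 20 mg on 3 arrays, though not well above background on female replicate 2. It was lower on male 20 mg replicate 2, and the male SD of 1.99 exceeded the difference of -0.16. Its second probe differed by -0.03 and -1.55 in females and by 0.70 and 0.02 in males. Grid1 encodes the delta receptor GluD1, a synapse organizer that binds neurexins through cerebellins. It had 7.14, 6.65 and 3.88 in females and 6.34, 7.83 and 7.18 in males, lower on both female and higher on both male arrays. Female replicate 2 was not well above background, and replicate 1 differed by -0.48. The 2 mg arrays of the sexes differed here by -0.80, the male lower.

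Among the NMDA receptor subunits, Grin2d, a subunit of slow receptors prominent in the embryonic and neonatal hindbrain, was higher on all 4 arrays at 20 mg. It had 6.91 at 2 mg and 7.92 and 8.89 at 20 mg in females, and 7.24, 8.31 and 8.26 in males. The mean differences were 1.49 (SD 0.69, n = 2) and 1.04 (SD 0.03, n = 2), but female replicate 2 was not well above background and the variation filter left the probe out. The adjusted p from limma was 1 in each sex. Grin1 is the obligatory subunit, and its probes disagreed. The brightest had 10.18, 9.29 and 9.45 in females and 9.47, 9.66 and 11.19 in males. The tail probe printed above had 3.84, 4.55 and 9.48 in females and 4.11, 4.91 and 6.31 in males, and was well above background on both female arrays and on male replicate 2 at 20 mg but on neither 2 mg array. By that probe Grin1 was at least 7.74-fold higher at 20 mg in females, a limit since the 2 mg array did not measure it, while by the brightest the female difference was -0.81. The limit was 1.40-fold on replicate 1 alone and 42.8-fold on replicate 2 alone, so it rests on the latter. The adjusted p from limma for this probe was 1 in each sex.

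Grin2b, the subunit that predominates before birth, had 9.37, 8.93 and 10.20 in females and 9.38, 7.94 and 10.42 in males. In each sex, replicate 1 lay below and replicate 2 above the 2 mg array at this probe. The second Grin2b probe had that order in males, but in females it was lower on both arrays, with differences of -0.96 and -1.96. Grin2a, which replaces Grin2b as synapses mature, had 6.83, 6.76 and 3.32 in females and 6.74, 6.69 and 6.28 in males. Apart from the array at the floor, its values thus stayed within 0.46 of the 2 mg array of the sex. Its second probe, well above background on 3 arrays but on neither male array at 20 mg, was lower on all 4 arrays at 20 mg. Grin2c, the subunit of mature granule cells, differed by at most 0.45 on any array, but was not well above background on female replicate 2. Grin3a and Grin3b lower the calcium permeability of the receptor. Grin3a was lower on all 4 arrays, with differences of -0.50 and -1.72 in females and of -0.04 and -0.09 in males, and 1 male array of its second probe was higher. Grin3b had 6.52, 6.58 and 9.58 in females and 6.44, 7.17 and 6.38 in males, so that its female call rested on replicate 2.

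The metabotropic receptors signal through G proteins and fall into groups by coupling. Grm5, of group I, is coupled to phospholipase C and abundant in immature neurons. It had 13.39, 13.25 and 13.55 in females and 13.49, 13.53 and 12.56 in males. Its mean differences were 0.01 in females and -0.45 in males, both within the SD between the pools. On female replicate 2 its other probes differed by 0.82 and -1.52. Of group II, which inhibits adenylyl cyclase, Grm2, a receptor of Golgi cells, had 9.32, 8.33 and 9.25 in females and 8.66, 8.52 and 11.21 in males. The male differences were thus -0.15 on replicate 1 and 2.55 on replicate 2. Grm3, also expressed by astrocytes, had 10.25, 9.89 and 11.37 in females, and its male differences were 0.34 and -1.19. The group III receptors are mostly presynaptic. Grm7 was lower on all 4 arrays at 20 mg (11.73, 10.87 and 10.06 in females, and 11.22, 10.55 and 10.21 in males). Its differences of -1.27 and -0.84 exceeded the SD between the pools, 0.57 and 0.24, and the adjusted p from limma was 1 in each sex. Grm8 was lower on all 4 as well, with differences of -0.62 and -3.23 in females and of -0.22 and -0.51 in males. Grm4, the receptor at parallel fibre endings, had 8.46, 7.01 and 7.66 in females and 8.00, 8.29 and 8.63 in males. The 2 mg array was thus the highest in females and the lowest in males, but Grm4 was not well above background on female replicate 2. Its second probe differed by 0.04 and -1.88 in females and by -0.30 and 0.52 in males, and so did not keep this order.

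In all, 7 of the 35 genes (20.0%) were lower on every 20 mg array than on the 2 mg array of their sex: Grip1, Grik3, Grik4, Grin2a, Grin3a, Grm7 and Grm8. Of these 7, only Grin2a had a further measured probe that was also lower on every one, Grip1 and Grin3a had one that was not, and the rest had no other measured probe. Grik5 and Grin2d (5.71%) were higher on every one. Over the 15572 genes these shares were 6.51% and 4.96%. Differences of any size were counted, down to -0.01 for Grik4 on male replicate 2. The probes of Grip1, Grik3, Grin3a and Grm7 have 30% to 36.7% G and C bases, those of Grin2a, Grm8 and Grik4 45% to 53.3%. On male replicate 2 the median difference of all fitted probes with under 40% was -0.69. The part of base composition in the count was not tested. Grip1, Grin2a and Grm8 were not well above background on female replicate 2. Both 20 mg arrays of a sex were set against the same 2 mg array, so their directions are not independent. The median difference over the 35 genes was -0.17 and -0.53 on female replicates 1 and 2 and 0.04 and -0.28 on male replicates 1 and 2. Over the 15572 genes it was 0.04 and -0.27, and 0.22 and -0.30.

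Among the scaffold genes, Shank3, the platform at the base of the postsynaptic density, was the only one whose male mean was past 2.5-fold, and the variation filter left it out. It had 8.90 at 2 mg and 10.73 and 9.97 at 20 mg in males, a difference of 1.45 with an SD of 0.53 (n = 2). In females it was lower on both arrays (9.78, 8.96 and 9.25). The second Shank3 probe was well above background on 2 of the 6 arrays and differed by 0.09 and 1.10 in females and by -0.01 and 0.53 in males, so it was not lower in females. Shank1, enriched at mature spines, had 8.06, 7.10 and 10.27 in females and 7.91, 7.48 and 9.56 in males. Replicate 1 was thus below and replicate 2 above the 2 mg array in both sexes at this probe, while 2 further probes differed by -0.10 and -3.55 on female replicate 2. Homer3, the form of Purkinje cells, had the same order (7.51, 6.86 and 9.59 in females, and 7.32, 7.26 and 9.21 in males), but its second probe was lower on replicate 2 of both sexes, with differences of -1.82 and -1.04 where it was not well above background. Shank2 had 8.42, 8.25 and 10.33 in females and 8.47, 7.31 and 8.11 in males, and its second probe differed by 1.34 and 0.23 in males. Dlg4 had 10.46, 9.74 and 9.93 in females and 10.73, 11.55 and 9.81 in males. It was lower on 3 of the 4 arrays at 20 mg, with an SD between the male pools of 1.23.

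Homer2, which binds the same receptors as Homer1, had 8.07, 9.40 and 3.32 in females and 8.39, 9.61 and 8.98 in males. It was therefore higher at 20 mg on 3 arrays and called lower in females through the array at the floor. Its second probe differed by -0.06 and -2.68 in females and by 1.26 and -0.14 in males. Homer1 was nearly level at its brightest probe (10.51, 10.91 and 10.54 in females, and 10.41, 9.93 and 10.13 in males). On female replicate 1 all 5 Homer1 probes were higher, by 0.17 to 0.41, the short-form probe by 0.36 and the long-form probe by 0.34. On replicate 2 only the brightest stayed well above background. There the first shared probe differed by -3.79, the next by -0.56, the short-form probe, at the floor, by -2.78 and the long-form probe by -2.31. The differences of the shared probes lay 3.23 apart on that array, where neither was well above background. In males the short-form probe differed by -0.09 and 0.51 and the long-form probe by -0.09 and 1.37. In males no shift between the forms was seen on both arrays. In females it could not be read on both, since neither form's probe was well above background on replicate 2. The short-form probe has 35% and the long-form probe 55% G and C bases. The part of base composition in their gap on male replicate 2 was not tested.

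The transporters mark the sending and the clearing side of the synapse. Slc17a6 (VGLUT2) fills the vesicles of climbing fibres, of nuclear neurons and of immature granule cells. It had 13.08, 12.37 and 9.79 in females and 12.61, 13.49 and 11.25 in males. It was the only one of the 9 genes called lower that was well above background on all 6 arrays. Its female mean was lower by 3.99-fold, with an SD between the pools of 1.82 (n = 2, log2). Slc17a7 (VGLUT1), which takes over in mature parallel fibres, had 4.98, 6.21 and 7.09 in females and 4.57, 6.04 and 4.23 in males. It was not well above background on replicate 2 of either sex, and the variation filter left it out. Slc1a6 (EAAT4), the glutamate transporter of Purkinje cells, had 13.09, 12.86 and 15.21 in females and 12.88, 13.13 and 12.99 in males. Its female difference of 0.95 was smaller than the SD of 1.66 between the pools.

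Probes of the same gene gave a further measure of how far each array can be read. For 18 genes at least 2 probes were well above background on at least 2 arrays. The median gap between the highest and the lowest difference of a gene's probes was 0.50 on female replicate 1 and 2.57 on female replicate 2. In males it was 0.80 on replicate 1 and 0.65 on replicate 2. Between the 2 mg arrays of the sexes it was 0.55. Probes of one gene had opposite signs for 10 of 18 genes on each female array and for 8 and 10 on the male arrays. Between the 2 mg arrays this was so for 13, so the signs did not set female replicate 2 apart. Gaps and signs were not computed over all genes. Of the 58 fitted probes, the fold rule called 14 lower (24.1%) and 2 higher (3.45%) in females, beside 15.3% and 5.43% of all 37211 fitted probes. In males it called 0 lower and 1 higher (the Grin1 tail probe), beside 2.97% and 1.7%. The plot of all probes of 6 genes shows probes of a gene lying far apart on the same dim array.

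On male 20 mg replicate 2 the differences followed the base composition of the probes. Of the 14 probes of these genes with 50% or more G and C bases, 12 were higher than on the male 2 mg array (median 0.74). Of the 20 probes with under 40%, 15 were lower (median -0.36). Spearman's rho between G and C content and difference was 0.58 over the 58 probes, which share 1 pair of arrays. The same held over all 37211 fitted probes, with a rho of 0.50 and medians of 0.58 and -0.69 in these classes. On the other arrays rho over the 58 probes was -0.20 (female replicate 1), 0.12 (female replicate 2) and 0.02 (male replicate 1). The highest differences on male replicate 2, of a probe of Grm2 (2.55), the tail probe of Grin1 and a probe of Shank1 (1.94), all belonged to probes with 55% G and C bases. Homer3 (1.89), with 41.7%, followed. The part of base composition in single genes was not tested.

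**Figure D3:**
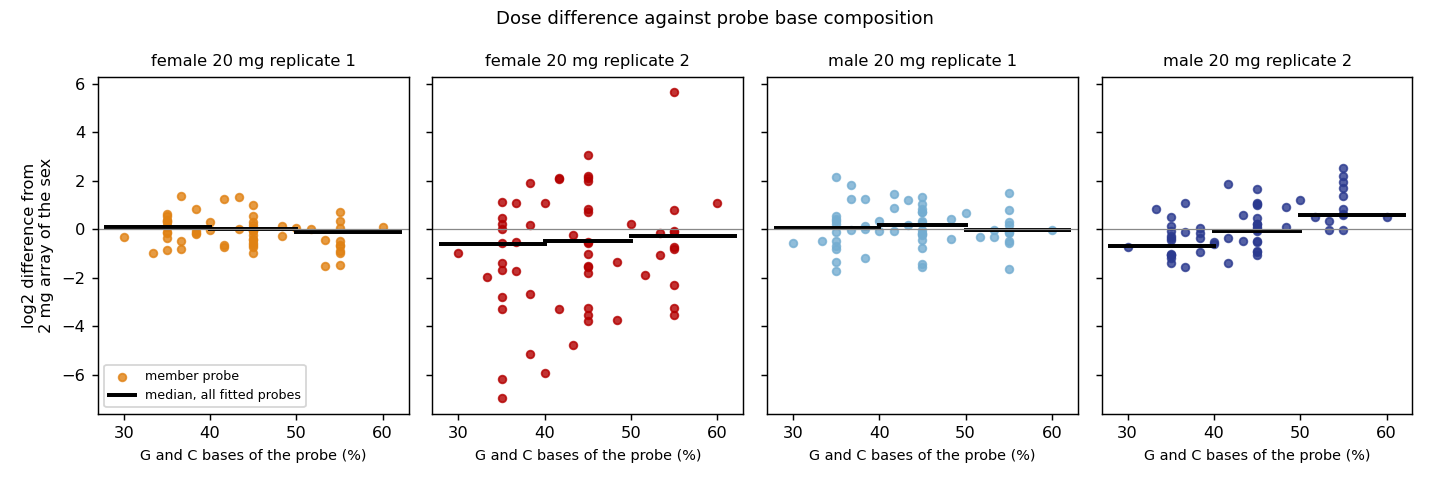
Log2 difference from the 2 mg array of the sex against the share of G and C bases of the probe, for the 58 fitted probes of the 35 genes (points) on each 20 mg array, with the median of all 37211 fitted probes in 3 classes of base composition (black lines). On male 20 mg replicate 2 the black lines step from -0.69 to 0.58, and the points follow them.

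Of 33 further genes of the glutamate synapse, 31 had a probe by symbol and 30 were well above background on both 2 mg arrays. They comprise auxiliary subunits of AMPA and kainate receptors, trafficking proteins, other proteins of the postsynaptic density, and genes of glutamate uptake, vesicle loading and synthesis. None was called in males. In females 5 were called lower and 0 higher: Cacng5 and Cnih3, auxiliary subunits of AMPA receptors, Dlg2 and Camk2a of the postsynaptic density, and Slc17a8 (VGLUT3). These 5 are named after their values were seen, and all 5 were well above background on every array but female 20 mg replicate 2. These counts are 16.1% and 0% of the 31, beside the 14% and 3.35% given above. Among the 15 well above background on all 6 arrays, Pick1, which binds Gria2, had 7.48, 7.97 and 9.78 in females, the largest mean difference upward, and Glul, the glutamine synthetase of astrocytes, had 12.79, 11.52 and 11.40, the largest downward. In males Dlgap3, a partner of Dlg4, had 12.80, 14.06 and 14.15, and Nsf, an ATPase of vesicle and receptor traffic, had 13.83, 12.49 and 13.59. The median difference of the 31 genes was 0.10 and -0.97 on female replicates 1 and 2, and 0.20 and 0.00 on male replicates 1 and 2. In limma 0 of the 31 passed an adjusted p of 0.05 in males or in females.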

How the data were processed

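Single-colour Agilent arrays (62976 spots, 55681 probes) were read with Agilent Feature Extraction 10.7.3.1 by the authors, whose deposited intensity values were already background-subtracted. The authors' deposited table of normalized log2 values was used as an alternative. Array number, not read depth, limits precision. Outlier and control spots were left out, spots of a probe averaged, and log2 values quantile normalized over the 6 arrays (limma 3.58.1, R 4.3.3) and then set to a floor of 10 (3.32 on the log2 scale). The variation filter kept 15247 probes (chi-square p of at most 0.05 against the median variance, at most 50% missing), including the brightest probe of 12 of the 35 genes. The fold threshold was 2.5. The limma fit (lmFit and eBayes with trend, 4 groups of sex and dose) used 37211 probes well above background on at least 2 arrays, with Benjamini-Hochberg adjustment over all of them. It left 2 residual degrees of freedom, and its p-values measure the spread between pools. Named genes were the 35 genes by their brightest probe and, of the further synapse genes, the extremes among those measured on every array. Members and lists were chosen with earlier results of these data known. Alternatives covered scaling, background, floor, filters, probe choice, slide, scan day and left-out arrays.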

Additional observations from a re-analysis of the deposited data

Results flagged for a closer look

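Of the 35 genes, 5 (14.3%) lay lower on both 20 mg arrays of one sex and higher on both of the other than on the 2 mg array of that sex, against 10.2% of the 15572 genes. The difference itself was tested in limma as the interaction of dose and sex (the female minus the male difference, log2), and none passed, each with an adjusted p of 1. Grid1, the delta receptor, was lower in females and higher in males, with an interaction of -3.04 (SE 3.13). It was not well above background on female 20 mg replicate 2 (3.88), and differed by -0.48 on replicate 1. Shank3 had the same directions at -2.13 (SE 1.92), but its second probe was higher on both female arrays (0.09 and 1.10). Grin1, the obligatory NMDA receptor subunit, had them at -1.77 (SE 1.86), but its tail probe was higher on all 4 arrays. Grm4 had them at -1.58 (SE 2.61), but not at its second probe (0.04 and -1.88 in females, -0.30 and 0.52 in males). Its brightest probe was not well above background on female 20 mg replicate 2. Homer1 was higher in females and lower in males, at 0.60 (SE 1.68), while its other 4 probes were lower on female 20 mg replicate 2. The 2 mg arrays of the sexes already differed by -0.80 at Grid1, -0.88 at Shank3, -0.71 at Grin1, -0.46 at Grm4 and -0.09 at Homer1 (male minus female). Each dose difference was taken from the 2 mg array of its sex, and the part of this gap was not tested. The means at 20 mg were 5.27 in females and 7.51 in males for Grid1, and 9.10 and 10.35 for Shank3.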

How the results depend on the processing

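In limma 0 of the 35 genes passed under every alternative run, the replicate block included (0 in each of the 4 contrasts). Over the whole array limma called at most 3 probes in any contrast under the alternatives of scaling, background, floor, filter and probe choice. The smallest adjusted p from limma over the alternatives was 0.497 in males, 0.0771 in females (without female 20 mg replicate 1), 0.334 over both sexes and 0.62 for the interaction. The extraction at 20 mg was repeated from another batch, but the labels do not tie the replicate numbers to it, and same-numbered 20 mg arrays of the sexes deviated together with r = 0.0871 over 37211 probes. For the fold rule, shares over the 15572 genes were computed only without the variation filter. There 15.9% were lower and 4.85% higher in females, and 2.84% and 1.35% in males. For the other alternatives the counts describe the 35 genes alone. The count of genes lower in females (9) was 0 with a shift to a common 75th percentile, where the variation filter kept 2432 probes, 5 with no background correction and 1 (Slc17a6) among probes well above background on all 6 arrays. With 1 array of the 20 mg groups left out it ranged from 0 (without female 20 mg replicate 2) to 9. The count higher in females (1) was 0 with the 75th percentile shift, with normexp and with no background correction, 3 without the variation filter and 1 to 2 with an array left out. In males the counts (0 lower, 0 higher) were 1 and 1 in the deposited table (Gria1 and Grm2) and 1 and 1 without the variation filter (Gria1 and Shank3). With an array left out they were 0 to 1 lower (Gria1 without female 20 mg replicate 2, Slc17a6 without male replicate 1, Grip1 without male replicate 2) and 0 to 2 higher (Shank1 and Homer3 without male replicate 1, Gria2 and Grid1 without male replicate 2). Without female 20 mg replicate 2 the female difference kept its sign for 21 of the 35 genes, a count not made over the 15572 genes. It turned positive for 5 (Gria1 and 4 of the genes called lower) and negative for 8 (Gria4, Grin2b, Grm3, Grm5, Shank1, Shank2, Homer3 and Slc1a6). With an array left out it ranged from -6.54 to 0.0787 for Gria2, from -5.48 to 0.29 for Gria3, from -3.27 to 0.12 for Grik1 and from -4.34 to 1.35 for Homer2, each lowest without female 20 mg replicate 1. On the same slide or scan day alone it was 0.0813 for Gria2, 0.29 for Gria3, 0.13 for Grik1 and 1.33 for Homer2. For Homer2 it was also 0.0274 with the 75th percentile shift and 0.0390 with no background correction. That shift moved the female median of all fitted probes from -0.21 to 0.45 and that of the 35 genes from -0.53 to 0.00. The cause of these changes was not tested. With 1 pool at 2 mg in each sex, the spread at 2 mg is unknown.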
